A study of Homo sapiens with 12 samples.

Results

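The RAS, RAF, MEK and ERK genes encode the core of the signalling cascade that NF1 restrains, and 7 of them are described here: HRAS, NRAS, ARAF, BRAF, MAP2K1, MAP2K2 and MAPK3. They were taken by gene symbol from a count table of 27864 genes, and the choice was made with earlier results of these data known. All 7 were present and all 7 had enough counts to be tested, as did 16081 genes of the table. Messenger RNA was sequenced in T47D cells, an established luminal, oestrogen receptor-positive breast cancer line, in 4 groups: NF1 knockout cells (NF1KO) given 3 µM BYL719 (3 libraries), NF1KO cells given the vehicle DMSO (2 libraries), control cells (CTRL) given 3 µM BYL719 (3 libraries) and CTRL cells given DMSO (3 libraries). Each treatment lasted 48 h, and BYL719, or alpelisib, inhibits the alpha isoform of PI3K. The labels list 12 samples, of which the first NF1KO replicate with DMSO has no column in the count table and is not analysed here. The labels name 1 control line and 1 knockout line and do not say how the knockout was made or whether it is a clone, so NF1 loss cannot be told apart from any other difference between those lines. The design text calls the replicates experimental without saying what separated them, so p-values measure only the spread between these libraries.

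RAS proteins are membrane-bound switches that are active with GTP and inactive with GDP. Active RAS recruits the RAF kinases, which phosphorylate the MEK kinases MAP2K1 and MAP2K2, which in turn phosphorylate ERK kinases such as MAPK3. Neurofibromin, the product of NF1, speeds the return of RAS to the inactive state, and active RAS can also bind and stimulate PI3K, the kinase that BYL719 inhibits. The cascade is known mainly for regulation by phosphorylation, protein binding and feedback. Messenger RNA levels of its genes therefore do not measure its activity, and no protein or phosphorylation was measured in these libraries.

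NF1 itself stood at 0.613 ± 0.252 CPM (a counts-per-million value over scaled library size, mean ± SD, n = 3) in NF1KO and 171 ± 37.1 CPM (n = 3) in CTRL under BYL719, and at 0.475 ± 0.00633 CPM (n = 2) in NF1KO and 249 ± 39.6 CPM (n = 3) in CTRL under DMSO, in accord with the labels. Libraries held between 53283945 and 60148876 counts. All 12 luminal markers were expressed, with a summed level of 12048.5 to 12836.9 CPM in NF1KO with BYL719, 12569.3 to 12727.1 CPM in NF1KO with DMSO, 13268.5 to 15603.3 CPM in CTRL with BYL719 and 11236.6 to 13000.3 CPM in CTRL with DMSO. Of 14 markers of other cell types, 8 had enough counts to be tested; their sum was 310 to 413 CPM in NF1KO with BYL719, 302 to 345 CPM in NF1KO with DMSO, 544 to 830 CPM in CTRL with BYL719 and 582 to 788 CPM in CTRL with DMSO. ALB, at up to 797 CPM in a library, and COL1A1, at up to 55.2 CPM, made up most of that sum, while PTPRC, CD3E, KRT5, COL1A2 and COL3A1 were at or below 0.055 CPM in every library. Luminal markers differed between groups as well: 6 of 12 were lower in NF1KO than in CTRL under BYL719 and 4 under DMSO, while 2 rose with BYL719 in NF1KO and 6 in CTRL. In the same order, the shares of all genes tested that differed in either direction were 39.8%, 20.3%, 18.7% and 44.4%. The part of these marker differences in the members' results was not tested, and in such bulk libraries fewer cells of a type and less RNA per cell cannot be told apart. Both CTRL libraries numbered 1 stood apart from the others of their group, with median correlations of 0.99057 (BYL719) and 0.99257 (DMSO) across genes. The other 9 libraries had values of at least 0.99302. NRAS, ARAF, MAP2K1, MAP2K2 and MAPK3 were each lowest in the library numbered 1 in both CTRL groups.

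The 7 genes lie on 7 chromosomes. In RefSeq on GRCh38, HRAS (Entrez 3265) occupies chr11:532242-535576 on the minus strand, NRAS (4893) chr1:114704469-114716771 on the minus strand, ARAF (369) chrX:47561205-47571908 on the plus strand and BRAF (673) chr7:140713328-140924929 on the minus strand. MAP2K1 (5604) lies at chr15:66386912-66491544 on the plus strand, MAP2K2 (5605) at chr19:4090321-4124122 on the minus strand and MAPK3 (5595) at chr16:30114105-30123220 on the minus strand. The 250 bases upstream of the first listed transcript start are shown for the members whose counts moved most with BYL719 or between the lines, HRAS, BRAF, MAP2K2 and MAPK3. They were read 5′ to 3′ on the strand of the gene from RefSeq promoters on GRCh38.p14. Capitals mark matches, on either strand, to the GC box GGGCGG, to CCAAT, to the E-box motif CACGTG and to the ETS core motif CCGGAA. Overlapping matches are merged in capitals. The windows were chr11:535577-535826 for HRAS, chr7:140924269-140924518 for BRAF, chr19:4124123-4124372 for MAP2K2 and chr16:30123221-30123470 for MAPK3.
HRAS: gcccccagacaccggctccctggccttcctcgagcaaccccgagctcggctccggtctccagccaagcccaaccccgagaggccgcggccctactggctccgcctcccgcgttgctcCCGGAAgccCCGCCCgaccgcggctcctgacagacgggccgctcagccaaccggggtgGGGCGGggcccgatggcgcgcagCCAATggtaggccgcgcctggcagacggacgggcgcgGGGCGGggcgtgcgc
BRAF: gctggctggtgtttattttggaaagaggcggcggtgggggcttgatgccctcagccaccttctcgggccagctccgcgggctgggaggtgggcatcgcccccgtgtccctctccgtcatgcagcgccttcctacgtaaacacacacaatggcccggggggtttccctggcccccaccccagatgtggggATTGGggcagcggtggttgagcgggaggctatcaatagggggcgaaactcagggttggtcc
MAP2K2: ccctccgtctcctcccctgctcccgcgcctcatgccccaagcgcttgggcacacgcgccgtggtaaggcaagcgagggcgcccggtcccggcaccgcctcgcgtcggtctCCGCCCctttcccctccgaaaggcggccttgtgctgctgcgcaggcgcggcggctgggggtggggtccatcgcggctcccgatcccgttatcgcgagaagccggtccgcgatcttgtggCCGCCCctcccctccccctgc
MAPK3: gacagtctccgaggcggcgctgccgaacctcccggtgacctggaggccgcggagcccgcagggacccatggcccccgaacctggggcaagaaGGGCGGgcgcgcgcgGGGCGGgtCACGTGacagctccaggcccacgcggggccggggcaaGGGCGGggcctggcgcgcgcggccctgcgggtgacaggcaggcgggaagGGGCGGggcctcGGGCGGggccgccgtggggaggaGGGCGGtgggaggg
The HRAS window held 3 GC boxes, 1 CCAAT and 1 ETS core, and the BRAF window held 1 CCAAT, no GC box and no ETS core. MAP2K2 had 2 GC boxes, and MAPK3 had 6 GC boxes and 1 E-box. Among 27305 RefSeq promoter windows of the same length, 42.3% held a GC box, 33.0% CCAAT, 6.5% the E-box and 14.8% the ETS core; among the 12380 windows matched to tested genes the shares were 64.7%, 35.4%, 8.9% and 23.8%. GC content was 77.2% in the HRAS window, 64.8% in BRAF, 74.0% in MAP2K2 and 80.4% in MAPK3, against a median of 64.4% for tested genes. These matches are descriptions of the letters and no binding was measured. The listed BRAF start lies inside the RefSeq gene boundary, so its window is that of 1 of the annotated starts.

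In CPM per kilobase of merged GENCODE exons, CTRL cells with DMSO had the highest level for MAP2K2 (35.3 ± 2.64, SD, n = 3) and ARAF (33.5 ± 3.02). NRAS followed at 27.8 ± 2.59, MAP2K1 at 21.4 ± 0.935, MAPK3 at 15.9 ± 2.30, HRAS at 10.2 ± 0.474 and BRAF at 0.883 ± 0.0421. The ranges of MAP2K2 and ARAF overlapped across libraries, as did those of ARAF and NRAS, and the other neighbours in this order did not overlap. BRAF was the lowest and HRAS the next lowest of the 7 genes in all 4 groups, also when the longest or the median coding transcript was used as the length. The order of the other 5 depended on that choice: with the median coding transcript ARAF came first at 42.7 and NRAS, at 27.8, came after MAPK3 and MAP2K1 in CTRL cells with DMSO. BRAF has 14405 bases of merged exons but a median coding transcript of 2561 bases, and its level in CTRL cells with DMSO was 4.97 per kilobase of that transcript. HRAS and BRAF had between 302 and 978 counts per library and the other members between 2009 and 7238, so counting error alone gave a coefficient of variation of 5.75% for HRAS at its lowest count and 1.30% for NRAS. The estimated variation between libraries of a group ranged from 6.51% for MAP2K1 to 11% for MAPK3.

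**Figure D1:**
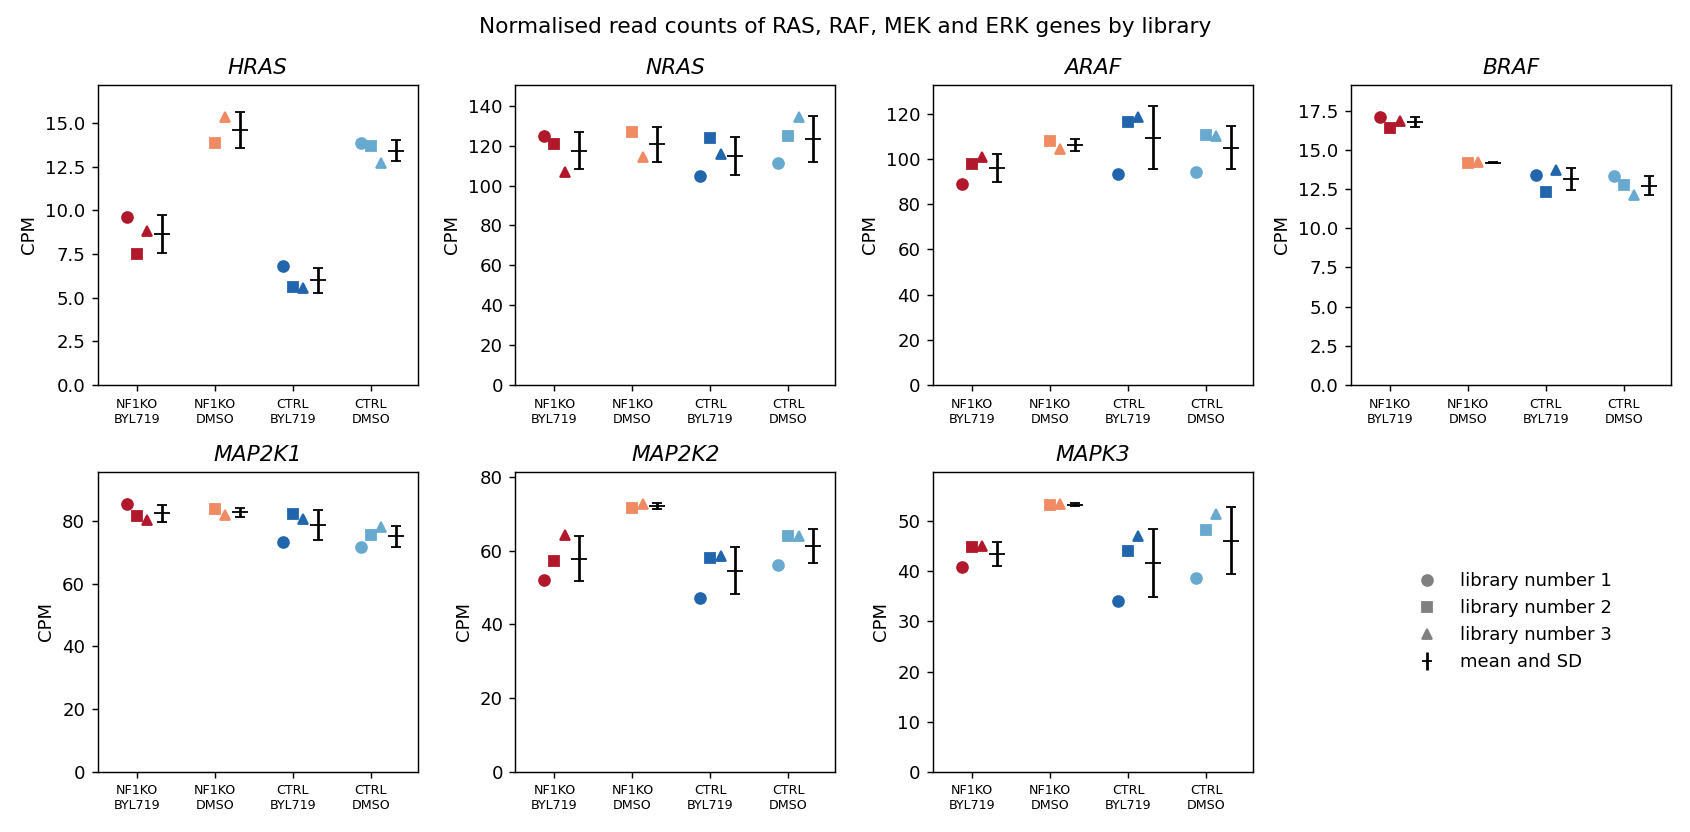
Normalised read counts (CPM, y axis from 0) of the 7 genes in each library of the 4 groups (x axis); symbols give the library number, and the cross and bar give the mean and SD of the group. HRAS is at 5.54 to 9.64 CPM in the 6 libraries with BYL719 and at 12.7 to 15.3 CPM in the 5 with DMSO, and BRAF is at 16.4 to 17.1 CPM in NF1KO with BYL719 and at 12.1 to 14.2 CPM in the other libraries.

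HRAS had the largest log2 difference of the 7 members. For BYL719 against DMSO, the median absolute log2 difference over the members was 0.24 in NF1KO, beside 0.20 over all genes tested. In CTRL it was 0.11, beside 0.29. For NF1KO against CTRL it was 0.14 under DMSO, beside 0.20, and 0.08 under BYL719, beside 0.26. With BYL719, HRAS was lower in both lines; under BYL719, HRAS and BRAF were higher in NF1KO than in CTRL. A gene was called when its edgeR quasi-likelihood p, adjusted by Benjamini-Hochberg over 16081 genes, was under 0.05. For NF1KO against CTRL under DMSO, 0 of 7 members were called, against 20.3% of all genes tested. No member had an unadjusted p under 0.05 in that comparison, and DESeq2 and limma-voom also called 0. For NF1KO against CTRL under BYL719, 2 of 7 members were higher, against 20.8% of genes higher and 39.8% called in either direction. For BYL719 against DMSO, 1 of 7 members fell in NF1KO, against 8.47% of genes lower and 18.7% called in either direction. In CTRL cells 1 of 7 fell as well, against 21.8% lower and 44.4% called in either direction. That fit did not pair libraries by number. In CTRL, 2 members fell with the replicate number as a block. With a block within each genotype, added after seeing the data, 4 fell. When the response to BYL719 in NF1KO was compared with that in CTRL, 0 of 7 were called, against 9.39% of genes. There, 1 member had an unadjusted p under 0.05, and DESeq2 and limma-voom called 0. The comparisons share libraries, each group entering more than 1 of them, so these counts are not independent of each other.

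The median log2 difference over the 7 members was 0.14 for NF1KO against CTRL under DMSO, beside -0.01 over all genes tested. It was 0.07 for NF1KO against CTRL under BYL719, beside -0.0025. For BYL719 against DMSO it was -0.15 in NF1KO, beside 0.01, and -0.11 in CTRL, beside 0.0049. Groups of libraries did not overlap for 4 members under DMSO, BRAF, MAP2K1, MAP2K2 and MAPK3, all higher in NF1KO, against 27.9% of genes; none of these 4 was called. Under BYL719 they did not overlap for 2 members higher in NF1KO, HRAS and BRAF, against 25.2%. In NF1KO cells, BYL719 and DMSO libraries did not overlap for HRAS, ARAF, MAP2K2 and MAPK3, all lower with BYL719, against 26.2% of genes, and for BRAF, higher with BYL719, against 28.4%. In CTRL cells they did not overlap for HRAS alone among the 7, against 25.3% of genes lower. The groups hold 2 or 3 libraries, which makes separation without overlap common over all genes.

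**Figure D2:**
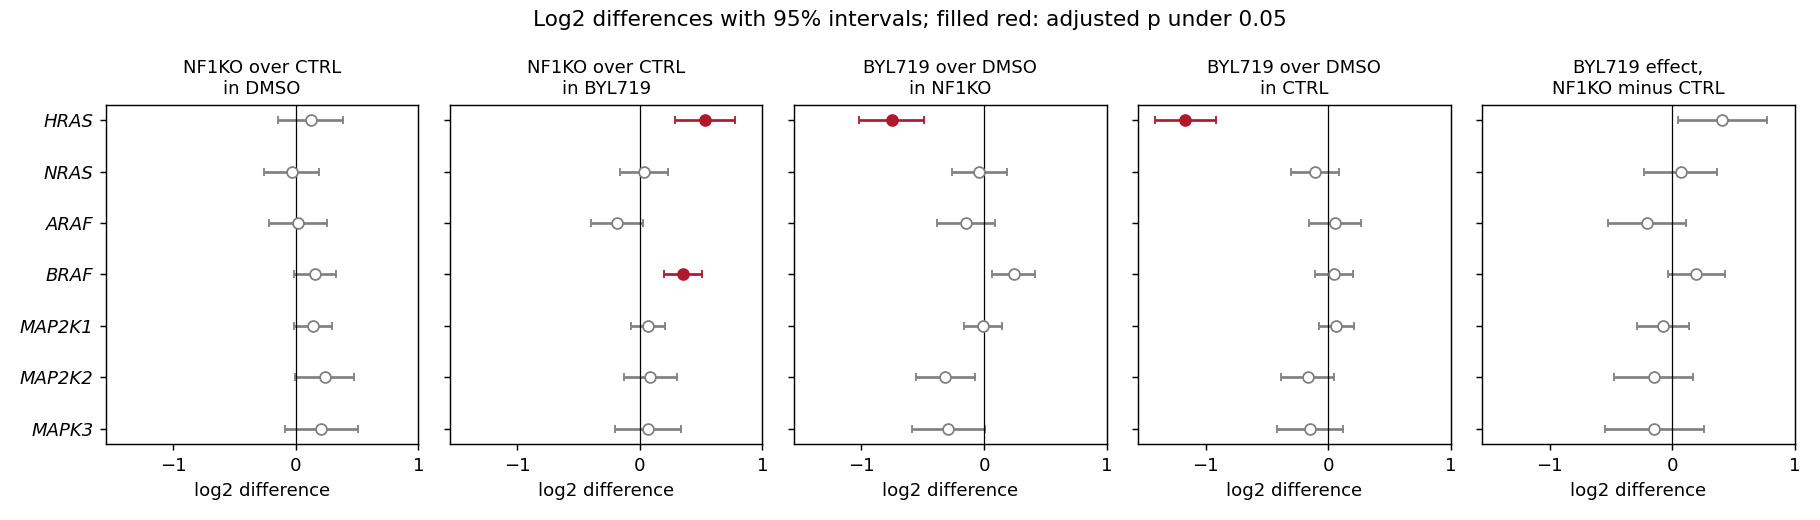
Log2 differences (x axis) of the 7 genes in the 5 comparisons, with 95% intervals; filled red points have an adjusted p under 0.05. HRAS is called in 3 of the 5 panels and BRAF in 1, and the intervals of the other 5 genes lie between -0.59 and 0.51 in every panel.

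HRAS encodes a lipid-anchored RAS GTPase of the plasma membrane and Golgi. Its level in NF1KO cells with BYL719 was 9.64, 7.50 and 8.82 CPM, against 13.9 and 15.3 CPM in NF1KO cells with DMSO. In CTRL cells with BYL719 it was 6.80, 5.62 and 5.54 CPM, against 13.9, 13.7 and 12.7 CPM in CTRL cells with DMSO. Every BYL719 library was thus below every DMSO library, and the 3 CTRL libraries with BYL719 were the lowest of all. HRAS fell with BYL719 by 0.75 on the log2 scale in NF1KO (SE 0.12, 95% interval -1.02 to -0.49, adjusted p = 0.00166), that is, it fell by 40.7%. In CTRL it fell by 1.16 on the log2 scale (SE 0.11, interval -1.41 to -0.92, adjusted p = 6.68e-06), or fell by 55.4%. Under BYL719, HRAS was higher in NF1KO than in CTRL by 0.53 ± 0.11 (adjusted p = 0.00262), or 44.5% (95% interval 21.7% to 71.6%). Under DMSO the difference between lines was 0.12 ± 0.12 (interval -0.14 to 0.38, adjusted p = 0.514), which leaves room for a level 9.42% lower to 30.6% higher in NF1KO. The fall in NF1KO was smaller than that in CTRL by 0.41 ± 0.17, a difference of effects that was not called (adjusted p = 0.171). It was called without CTRL BYL719 replicate 1 (0.51, adjusted p = 0.0482) and with a replicate block within each genotype, an alternative added after seeing the data (0.32, adjusted p = 0.0378). The 3 other HRAS calls held under every alternative tried.

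NRAS encodes a closely related RAS GTPase and is a frequent site of activating mutation in melanoma and leukaemia. Its level was 124.9, 120.7 and 107.0 CPM in NF1KO with BYL719, and 127 and 114 CPM in NF1KO with DMSO. It was 105, 124 and 116 CPM in CTRL with BYL719, and 111, 125 and 134 CPM in CTRL with DMSO. The ranges of the 4 groups overlapped. BYL719 against DMSO gave -0.04 ± 0.10 in NF1KO (95% interval -0.26 to 0.18) and -0.11 ± 0.09 in CTRL (interval -0.30 to 0.09, adjusted p = 0.372). The knockout against control gave 0.03 ± 0.09 under BYL719 and -0.03 ± 0.10 under DMSO. The CTRL libraries were taken as paired by number from their correlations, not from the labels. With a block within each genotype, added after seeing the data, NRAS was called lower with BYL719 in CTRL (-0.11, adjusted p = 0.0476). It was called there under 1 of 21 alternatives. NRAS had 12.1 to 16.1 counts per HRAS count in NF1KO with BYL719 and 7.46 to 9.14 in NF1KO with DMSO, while in CTRL the count ratio was 15.4 to 22.0 with BYL719 and 8.03 to 10.6 with DMSO. The ratio was higher in every BYL719 library than in every DMSO library, with HRAS the gene of the pair that was called.

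ARAF and BRAF encode RAF kinases that RAS recruits to the membrane; BRAF has the stronger basal kinase activity and ARAF is encoded on the X chromosome. BRAF stood at 17.1, 16.4 and 16.8 CPM in NF1KO with BYL719, against 14.1 and 14.2 CPM in NF1KO with DMSO. In CTRL it stood at 13.4, 12.3 and 13.7 CPM with BYL719, against 13.3, 12.7 and 12.1 CPM with DMSO. The 3 NF1KO libraries with BYL719 were the highest of the 11. Under BYL719, BRAF was higher in NF1KO than in CTRL by 0.35 ± 0.07 (95% interval 0.20 to 0.51, adjusted p = 0.00179), or 27.8%, a call that held under every alternative tried. Under DMSO the difference between the lines was 0.16 ± 0.08 (interval -0.02 to 0.33, adjusted p = 0.192). BYL719 against DMSO gave 0.24 ± 0.08 in NF1KO (interval 0.07 to 0.42), which missed the threshold (adjusted p = 0.0534), and 0.05 ± 0.07 in CTRL (adjusted p = 0.641). The NF1KO value was called under 7 of 21 alternatives, among them DESeq2 (adjusted p = 0.0447) and the fit without CTRL BYL719 replicate 1 (adjusted p = 0.0452), and ranged from 0.22 to 0.26. The difference between those effects was 0.20 ± 0.11 and was not called (adjusted p = 0.335). In GENCODE, 1239 exonic bases of BRAF overlap NDUFB2 on the opposite strand, a respiratory chain gene with 328% of the counts of BRAF. The library kit keeps strand, but the strand setting of the counting is not given in the sources used here. NDUFB2 differed by -0.02 to 0.03 in the 4 comparisons of groups and was called in none of them.

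ARAF stood at 89.0, 97.7 and 100.7 CPM in NF1KO with BYL719, against 108 and 104 CPM in NF1KO with DMSO. In CTRL it stood at 93.2, 116 and 118 CPM with BYL719, against 94.0, 110.4 and 110.2 CPM with DMSO. The NF1KO groups did not overlap, and the low values in both CTRL groups were those of the libraries numbered 1. BYL719 against DMSO gave -0.15 ± 0.11 in NF1KO (95% interval -0.38 to 0.09, adjusted p = 0.385) and 0.06 ± 0.10 in CTRL (adjusted p = 0.656). The knockout against control gave -0.19 ± 0.10 under BYL719 (interval -0.40 to 0.02, adjusted p = 0.145) and 0.02 ± 0.11 under DMSO (adjusted p = 0.929). Without CTRL BYL719 replicate 1, ARAF was called lower in NF1KO under BYL719 (-0.29, adjusted p = 0.0123), and the planned replicate block gave -0.18 (adjusted p = 0.0142). ARAF had 5.21 to 5.99 counts per BRAF count in NF1KO with BYL719 and 7.33 to 7.64 in NF1KO with DMSO. In CTRL the ratio was 6.98 to 9.42 with BYL719 and 7.06 to 9.11 with DMSO, so that the 3 NF1KO libraries with BYL719 had the lowest ratios of the 11.

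MAP2K1 and MAP2K2 encode MEK1 and MEK2, closely related dual-specificity kinases whose known substrates are the ERK kinases. MAP2K1 was at 85.4, 81.6 and 80.2 CPM in NF1KO with BYL719, and at 83.7 and 81.8 CPM in NF1KO with DMSO. It was at 73.2, 82.3 and 80.6 CPM in CTRL with BYL719, and at 71.5, 75.6 and 78.0 CPM in CTRL with DMSO. Only under DMSO did groups separate for MAP2K1, with both NF1KO libraries above the 3 CTRL libraries, and the difference of 0.14 ± 0.07 was not called (95% interval -0.02 to 0.30, adjusted p = 0.188). The lines differed by 0.07 ± 0.06 under BYL719, and BYL719 against DMSO gave -0.01 ± 0.07 in NF1KO and 0.07 ± 0.06 in CTRL, none of them called. MAP2K1 shares 216 exonic bases with SNAPC5 on the opposite strand, which had 43.6% of its counts. SNAPC5, a subunit of the small nuclear RNA activating complex, fell with BYL719 by 0.37 in NF1KO (adjusted p = 0.0116) and by 0.41 in CTRL (adjusted p = 0.00106). The part of those reads in the MAP2K1 counts was not tested.

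MAP2K2 was at 52.1, 57.1 and 64.3 CPM in NF1KO with BYL719, against 71.5 and 72.7 CPM in NF1KO with DMSO. In CTRL it was at 47.1, 58.0 and 58.6 CPM with BYL719, against 56.0, 64.0 and 63.9 CPM with DMSO. The NF1KO groups did not overlap and the CTRL groups did, with the library numbered 1 lowest in each CTRL group. BYL719 against DMSO gave -0.32 ± 0.11 in NF1KO (95% interval -0.56 to -0.08, adjusted p = 0.0652), just outside the threshold. It was called under 8 of 21 alternatives, with adjusted p of 0.0461 without CTRL DMSO replicate 1, 0.0214 without CTRL BYL719 replicate 1 and 0.0328 without NF1KO BYL719 replicate 3. In CTRL, BYL719 against DMSO gave -0.17 ± 0.10 (interval -0.38 to 0.05, adjusted p = 0.196). With the CTRL libraries paired by number, MAP2K2 was called lower in CTRL at -0.17 (adjusted p = 0.0216 with the replicate block and 0.00339 with a block within each genotype). The lines differed by 0.08 ± 0.10 under BYL719 and by 0.23 ± 0.11 under DMSO (adjusted p = 0.156), neither called. MAP2K1 had 1.25 to 1.64 counts per MAP2K2 count in NF1KO with BYL719 and 1.13 to 1.17 in NF1KO with DMSO, against 1.38 to 1.55 in CTRL with BYL719 and 1.18 to 1.28 in CTRL with DMSO.

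MAPK3 encodes ERK1, a kinase that phosphorylates transcription factors and other kinases after activation by MEK. It was at 40.8, 44.8 and 45.02 CPM in NF1KO with BYL719, against 53.1 and 53.5 CPM in NF1KO with DMSO. In CTRL it was at 34.0, 44.0 and 47.1 CPM with BYL719, against 38.7, 48.3 and 51.5 CPM with DMSO. The NF1KO groups did not overlap, whereas the CTRL groups overlapped widely, with a highest-to-lowest ratio of 1.39 among CTRL libraries with BYL719 and 1.33 among those with DMSO. BYL719 against DMSO gave -0.29 ± 0.14 in NF1KO (95% interval -0.59 to 0.01, adjusted p = 0.159) and -0.15 ± 0.12 in CTRL (interval -0.41 to 0.12, adjusted p = 0.362). A block within each genotype was added after seeing the data, and in NF1KO it rests on the library numbers alone. With that block MAPK3 was called lower in CTRL (-0.15, adjusted p = 0.00611) and in NF1KO (-0.25, adjusted p = 0.00112). In NF1KO it was also called with the compared libraries alone (-0.30, adjusted p = 0.0132) and without both CTRL libraries numbered 1 (-0.30, adjusted p = 0.00413), 3 of 21 alternatives in all. The lines differed by 0.06 ± 0.12 under BYL719 (adjusted p = 0.721) and by 0.21 ± 0.14 under DMSO (adjusted p = 0.309). In each of the 5 comparisons MAPK3 had the widest interval of the 7 genes, and its library numbered 1 was the lowest in both CTRL groups.

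Within libraries of the same number, the BYL719 level was divided by the DMSO level, which leaves out what a number's libraries shared. For HRAS the ratio was 0.541 and 0.575 in the 2 NF1KO pairs and 0.490, 0.410 and 0.436 in the 3 CTRL pairs. MAPK3 had ratios of 0.843 and 0.842 in NF1KO and 0.879, 0.911 and 0.914 in CTRL, and MAP2K2 had 0.798 and 0.884 in NF1KO and 0.842, 0.907 and 0.918 in CTRL. HRAS, NRAS, MAP2K2 and MAPK3 were lower with BYL719 in 2 of 2 NF1KO pairs and 3 of 3 CTRL pairs. The share of all genes lower in every pair was not computed, so that count says nothing particular about the members. For NRAS the ratios were close to 1, from 0.934 to 0.953 in NF1KO and from 0.864 to 0.990 in CTRL. BRAF ratios were above 1 in both NF1KO pairs (1.16 and 1.18) and lay between 0.968 and 1.13 in CTRL. MAP2K1 was lower in 2 of 2 NF1KO pairs, with ratios of 0.975 and 0.980, and in 0 of 3 CTRL pairs, with ratios of 1.02 to 1.09. ARAF was lower in 2 of 2 NF1KO pairs and in 1 of 3 CTRL pairs. CTRL libraries were taken as paired from the correlation of their deviations, which rests mainly on the libraries numbered 1. The NF1KO pairs rest on the numbers alone.

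**Figure D3:**
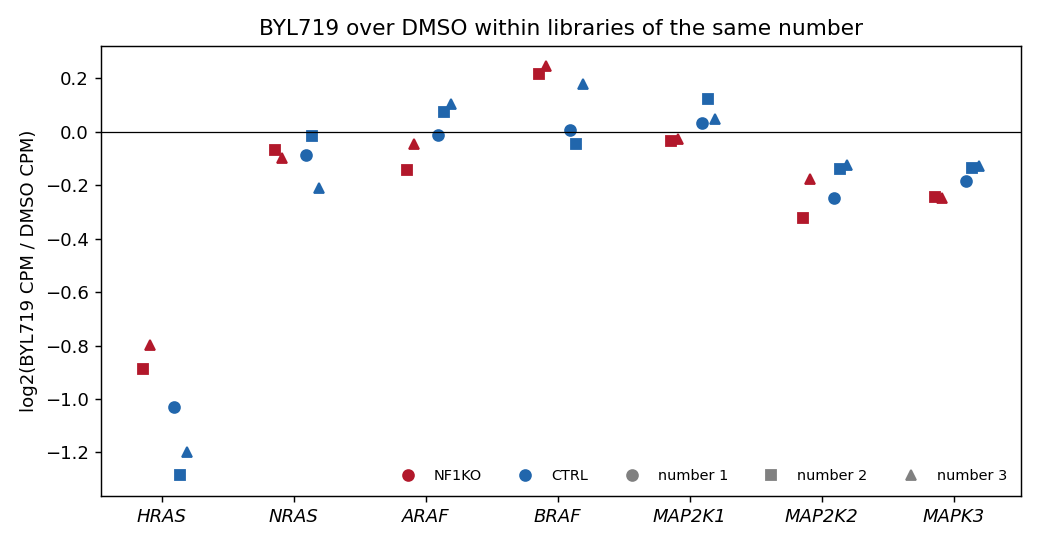
Log2 ratio of the BYL719 level to the DMSO level (y axis) for each gene (x axis) within libraries of the same number, in NF1KO (red, 2 pairs) and CTRL (blue, 3 pairs). HRAS lies between -1.29 and -0.80 in all 5 pairs, and MAPK3 between -0.25 and -0.13.

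Across the 11 libraries, MAP2K2 and MAPK3 had the most similar log2 levels of any pair among the 7 genes (Pearson r = 0.93), and ARAF and BRAF the most opposed (r = -0.58). These correlations describe libraries that share groups, a cell line and library numbers. Outside the family, the genes most like HRAS over 11 libraries, among 11153 genes compared, were PGP (r = 0.98), a phosphoglycolate phosphatase, and NMT1 (r = 0.98), an N-myristoyltransferase. BRAF was most like NRIP1 (0.97), a nuclear receptor corepressor, and MAP3K1 (0.97), a kinase of stress-activated cascades. MAP2K2 was most like S100A11 (0.98) and RFXANK (0.98), MAPK3 like COASY (0.99) and SCAMP3 (0.98), and ARAF like ETHE1 (0.97) and EXT2 (0.97). MAP2K1 had its closest match in PAQR7 (0.94) and LRRC61 (0.93), and NRAS in LAPTM4B (0.87) and C3orf33 (0.86), the lowest of the 7. For HRAS 1% of all genes compared exceeded r = 0.95 and for NRAS 1% exceeded 0.63, so a high r with HRAS was common. Of the 40 tested genes within 1 Mb of HRAS, 4 fell and 4 rose with BYL719 in NF1KO, and 4 fell and 8 rose in CTRL, with median log2 differences of 0.04 and 0.06. Over all genes tested, 18.7% were called in NF1KO and 44.4% in CTRL. Of the 17 tested genes within 1 Mb of BRAF, 2 were higher and 6 lower in NF1KO than in CTRL under BYL719, with a median of -0.10. The share of all genes called in that comparison was 39.8%.

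Genes that act around the cascade were taken as lists by known role, with earlier results of these data known. For the counts of called genes below, the shares over all genes tested were 39.8% for NF1KO against CTRL under BYL719 and 20.3% under DMSO. They were 18.7% for BYL719 against DMSO in NF1KO and 44.4% in CTRL. The ERK output list holds 20 transcripts known to follow ERK activity, chiefly feedback phosphatases, Sprouty and SPRED inhibitors and ETS factors. In NF1KO against CTRL under BYL719, 15 of the 20 were higher and 3 lower (median 0.98, against -0.0025 over all genes). Under DMSO, 16 were higher and 1 lower (median 0.86, against -0.01 over all genes). The 3 lower under BYL719 were EPHA4 (50.9 CPM in NF1KO and 123 CPM in CTRL), SPRY1 (5.29 and 7.31 CPM) and SPRED3 (0.797 and 1.42 CPM). DUSP4, an ERK phosphatase, was at 74.1 ± 4.59 CPM in NF1KO and 5.40 ± 0.264 CPM in CTRL under BYL719 (SD, n = 3 each), a log2 difference of 3.78 ± 0.08 (adjusted p = 3.74e-11). ETV4, named after its values were seen, had no count in any CTRL library with BYL719 and averaged 6.99 CPM in NF1KO, which makes it at least 398-fold higher against a floor of 3 counts over the CTRL group; with ETV4 at that bound the median stayed at 0.98. With BYL719 against DMSO, 2 of the 20 rose and 4 fell in NF1KO (median -0.21), and 4 rose and 7 fell in CTRL (median -0.26). The NF1KO count of 6 became 2 without NF1KO DMSO replicate 2 and 3 without NF1KO DMSO replicate 3. Among the 7 core genes the largest difference between the lines was that of HRAS, at 0.53 under BYL719.

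The 14-3-3 proteins bind phosphorylated RAF and hold it inactive or stabilise its active dimer. Under BYL719, 3 of 7 were higher in NF1KO than in CTRL (median 0.21), against 20.8% of all genes higher. YWHAQ led them at 387 ± 26.5 CPM in NF1KO and 311 ± 15.7 CPM in CTRL (0.32 ± 0.07, adjusted p = 0.00349). Under DMSO 0 of 7 were called, against 20.3% of all genes. Over all genes, 8.47% fell with BYL719 in NF1KO and 21.8% in CTRL. With BYL719, SFN alone of the 7 fell in NF1KO (-0.62 ± 0.11, adjusted p = 0.0023), and 4 of 7 fell in CTRL (median -0.32): SFN (-0.95 ± 0.10), YWHAH (-0.32 ± 0.06), YWHAQ (-0.36 ± 0.07) and YWHAZ (-0.32 ± 0.07). With the replicate block, 5 of 7 were called for NF1KO against CTRL under BYL719.

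Among 21 tested scaffolds and modulators between RAF and ERK, 3 were higher and 4 lower in NF1KO than in CTRL under BYL719 (median 0.01), and 1 was higher and 1 lower under DMSO (median 0.02). Over all genes tested, 39.8% were called under BYL719 and 20.3% under DMSO, so neither count exceeded that share. SHOC2, a scaffold that helps to remove an inhibitory phosphate from RAF, was at 191 ± 24.6 CPM in NF1KO and 357 ± 14.4 CPM in CTRL under BYL719, and at 179 ± 5.39 CPM in NF1KO (n = 2) and 359 ± 15.6 CPM in CTRL under DMSO. It was lower in NF1KO than in CTRL by 0.90 under BYL719 (adjusted p = 4.63e-06) and by 1.01 under DMSO (adjusted p = 1.57e-05). PPP1CC, a catalytic phosphatase subunit that can join SHOC2, was 0.40 ± 0.08 higher in NF1KO under BYL719 (adjusted p = 0.00108). KSR1, a scaffold that holds RAF and MEK together, was higher by 0.74 ± 0.17 under BYL719 (adjusted p = 0.00458) and by 0.69 ± 0.19 under DMSO (adjusted p = 0.0261). Its level was only 3.15 ± 0.49 CPM in NF1KO and 1.87 ± 0.348 CPM in CTRL under BYL719. The call of KSR1 under DMSO was lost under 4 of 20 alternatives, where no scaffold gene was called higher. With BYL719 against DMSO, 1 scaffold gene rose and 1 fell in NF1KO, and 4 rose and 3 fell in CTRL. The shares of all genes called in either direction were 18.7% in NF1KO and 44.4% in CTRL. The NF1KO count of 2 ranged from 0 to 6 and was 0 without any 1 of the NF1KO libraries, with no scaffold gene called higher under 8 of 21 alternatives. LAMTOR3, which anchors MEK and ERK at the late endosome, rose by 0.30 ± 0.09 in NF1KO (adjusted p = 0.0388) and by 0.62 ± 0.08 in CTRL (adjusted p = 6.81e-05). The call of LAMTOR3 in NF1KO was lost under those alternatives. Under DMSO, the count for NF1KO against CTRL was 1 without CTRL DMSO replicate 2 or 3 or NF1KO DMSO replicate 2 or 3. The other scaffold counts were sensitive to single libraries and to the block, ranging from 5 to 12 for NF1KO against CTRL under BYL719 and from 6 to 14 for BYL719 against DMSO in CTRL; that in CTRL was 12 without CTRL BYL719 replicate 1.

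Upstream, 5 of 8 RAS exchange factors had enough counts to be tested. Over all genes tested, 39.8% were called for NF1KO against CTRL under BYL719 and 20.3% under DMSO. For BYL719 against DMSO, 18.7% were called in NF1KO and 44.4% in CTRL. Under BYL719, RASGRP2 was higher in NF1KO and RASGRF1 and RASGRP1 were lower, and under DMSO RASGRP1 was called, with 2 of the 5 called under 7 of 20 alternatives, among them DESeq2 and the fit without CTRL BYL719 replicate 1. RASGRP1, an exchange factor best known in lymphocytes, was at 1.13 ± 0.219 CPM in NF1KO and 3.48 ± 0.431 CPM in CTRL under BYL719 (-1.62 ± 0.19, adjusted p = 2.35e-05). Levels of the other called factors were low too. Under BYL719, RASGRP2 was at 0.588 CPM in NF1KO and 0.280 CPM in CTRL, and RASGRF1 at 0.545 and 1.78 CPM. Of 12 genes for RAS processing and trafficking, 3 were higher and 2 lower in NF1KO under BYL719 (median 0.11), and 2 higher and 1 lower under DMSO (median 0.09). FNTB, the beta subunit of farnesyltransferase, was lower in NF1KO than in CTRL by 0.30 under BYL719 (adjusted p = 0.00537) and by 0.46 under DMSO (adjusted p = 0.00183). PDE6D, which carries farnesylated RAS through the cytosol, was 0.38 ± 0.10 higher in NF1KO under BYL719 (adjusted p = 0.0101) and fell by 0.44 with BYL719 in CTRL (adjusted p = 0.00405). With BYL719 against DMSO, 0 of the 12 were called in NF1KO and 7 in CTRL, 3 higher and 4 lower; the NF1KO count was 1 without CTRL DMSO replicate 1 and 2 without CTRL BYL719 replicate 1, and it was 6 with a block within each genotype. For NF1KO against CTRL, the count of 3 under DMSO was 1 without NF1KO DMSO replicate 2 or 3, and that of 5 under BYL719 was 8 with the replicate block. Among 17 tested GTPases of the wider RAS subfamily, 6 were higher and 2 lower in NF1KO under BYL719 (median 0.07), and 3 higher and 1 lower under DMSO (median 0.10). These counts were near the shares over all genes, 39.8% and 20.3%. RERG, an oestrogen-regulated RAS-like GTPase, was at 55.7 ± 4.70 CPM in NF1KO and 17.4 ± 1.49 CPM in CTRL under BYL719 (1.67 ± 0.08, adjusted p = 1.69e-08). RHEB, the GTPase that activates mTORC1, was 0.53 ± 0.07 higher in NF1KO under BYL719 (adjusted p = 0.000111). With BYL719 against DMSO, 3 of the 17 rose and 2 fell in NF1KO, and 3 rose and 5 fell in CTRL. The NF1KO count of 5 was 2 and 1 without NF1KO DMSO replicate 2 and 3, and 9 with a block within each genotype.

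**Figure D4:**
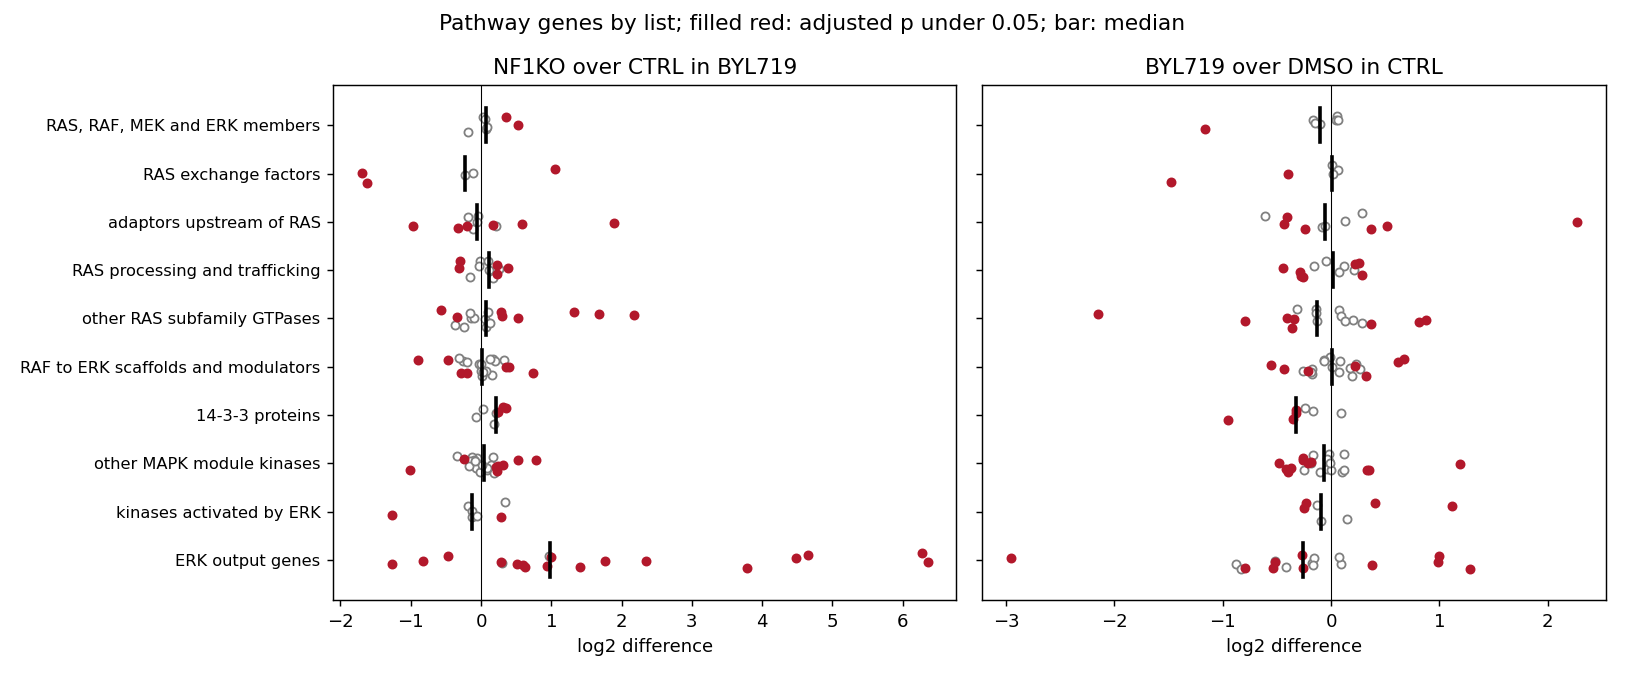
Log2 differences (x axis) of the 7 members and of the tested genes of 9 pathway lists (y axis) for NF1KO over CTRL under BYL719 and for BYL719 over DMSO in CTRL; filled red points have an adjusted p under 0.05 and bars mark medians, with ETV4 counted in its median but not drawn. The ERK output genes reach 6.36 in the left panel, where the 7 members lie between -0.19 and 0.53.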

How the data were processed

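Messenger RNA of T47D cells was sequenced as single reads of 76 bases with a stranded kit, per the labels. What was deposited is a table of raw counts by Entrez identifier, whose 11 columns were matched to samples by title. Per the submitters' processing notes, STAR 2.5.2a, SAMtools 1.7, Picard 2.9.2 and edgeR were used with hg38; the counting tool, its strand setting and its annotation are not given in the sources used here. The members and gene lists were chosen with earlier results of these data known.

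From these counts, 16081 genes passed filterByExpr of edgeR 4.0.16 (R 4.3.3), and TMM set the scaling. Its quasi-likelihood test of the 4 group means, with 7 residual degrees of freedom, gave 5 comparisons, 2-sided and adjusted by Benjamini-Hochberg over all genes tested. Calls needed an adjusted p under 0.05. The SE is the size of the log2 difference over the square root of F, and intervals are 95%. CPM uses TMM-scaled library sizes, and counting error covers counts only. The steps were tested on simulated counts.

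Named genes were the members, NF1, up to 4 genes per list by adjusted p in a comparison, and for each member the 2 genes of mean log2 CPM of at least 2 most correlated in log2 CPM (prior count 2). Positions and promoter windows are from RefSeq (99.6% of identifiers matched) and lengths and overlaps from GENCODE v29, both on GRCh38. The alternatives tried were upper-quartile or RLE scaling, a filter of 1 CPM in 3 or more libraries or none, limma-voom (limma 3.58.1), DESeq2 1.42.0, a fit of the compared libraries alone, the replicate number as a block and each library left out in turn. A block within each genotype and the fit without both CTRL libraries numbered 1 were added after seeing the data. Deviations from group means of same-number libraries correlated at 0.595, 0.337 and 0.318 across genes in CTRL, which was taken as pairing, and at 0.0838 and 0.149 in the 2 NF1KO pairs, which was not. Different-number CTRL libraries correlated at -0.419 to -0.362 where 1 of them was numbered 1, and at 0.228 and 0.177 between numbers 2 and 3. The pairing in CTRL thus rests mainly on the libraries numbered 1.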

Additional observations from a re-analysis of the deposited data

Results flagged for a closer look

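In 10 genes of the pathway lists other than the ERK outputs, the effect of BYL719 differed between NF1KO and CTRL by a test of the difference itself (edgeR, adjusted over all genes tested). Over all genes tested, 9.39% were called, and the calls over these lists were near that share. By list, 3 of 17 GTPases of the wider RAS subfamily, 2 of 5 exchange factors and 1 of 21 scaffolds and modulators were called. So were 1 of 7 proteins of the 14-3-3 family, 2 of 24 kinases of other MAPK modules and 1 of 7 kinases activated by ERK. None was called of 10 GTPase-activating proteins, 11 adaptors and 12 processing and trafficking genes. The difference of log2 effects, NF1KO minus CTRL, was 0.77 ± 0.12 for RERG (SE, adjusted p = 0.00152), 1.31 ± 0.29 for RASGRP2 (adjusted p = 0.0135), 1.21 ± 0.27 for DIRAS3 (adjusted p = 0.0146) and 0.60 ± 0.16 for RAP2C (adjusted p = 0.0332). Of these 4, 3 are GTPases of the RAS subfamily and RASGRP2 is an exchange factor. It was also positive for MAP3K1 (0.40 ± 0.11, adjusted p = 0.035), PPP1CC (0.42 ± 0.11, adjusted p = 0.0396) and YWHAH (0.30 ± 0.08, adjusted p = 0.0444). It was negative for RPS6KA2, a kinase activated by ERK (-1.24 ± 0.22, adjusted p = 0.00359), for the exchange factor RASGRF1 (-1.24 ± 0.24, adjusted p = 0.00679) and for MAPK11, a p38 kinase (-0.51 ± 0.12, adjusted p = 0.0191). RPS6KA2 was at 6.59 ± 0.376 CPM with BYL719 and 7.17 ± 0.163 CPM with DMSO in NF1KO, and at 15.9 ± 3.97 CPM with BYL719 and 7.30 ± 0.514 CPM with DMSO in CTRL. RASGRF1, RASGRP2 and DIRAS3 were below 4 CPM in all 4 groups. RASGRP2 averaged 0.280 to 0.785 CPM over the groups, with 13 to 18 counts per library in CTRL with BYL719. DIRAS3 had 20 to 29 counts per library in that group, and RASGRF1 had 28 to 35 in NF1KO with BYL719. Several of these calls did not hold under the alternatives. The YWHAH call is 1 of the 14-3-3 list and none of that list was called under 11 of 20 alternatives; none of the scaffold list, with PPP1CC, was called under 9 of 20. Without NF1KO DMSO replicate 3 no exchange factor was called, and without CTRL DMSO replicate 2, NF1KO DMSO replicate 2 or NF1KO DMSO replicate 3 no kinase of other MAPK modules was called. A further 5 ERK output genes were called for this difference, 4 higher and 1 lower, a count that ranged from 1 to 7 over the alternatives. None of the 7 core genes was called, but HRAS was under 2 alternatives (adjusted p = 0.0482 without CTRL BYL719 replicate 1 and 0.0378 with a block within each genotype). Groups of 2 or 3 libraries are too small for a test of single libraries far from the rest.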

How the results depend on the processing

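Of 714 member values under alternatives, 665 kept direction and side of the threshold, 27 became called, 22 changed sign and 0 lost a call. NF1KO against CTRL had 0 members called under DMSO in every alternative and 2 or 3 under BYL719. For BYL719 in CTRL, 1 member became 2 with the replicate block and 4 with a block within each genotype. In NF1KO, 1 became 2 with upper-quartile scaling or the 1 CPM filter, 3 with DESeq2, the replicate block or the compared libraries alone, 4 without both CTRL libraries numbered 1 or with a block within each genotype, and 1 to 3 leaving out single libraries. For the difference of effects, 0 became 0 to 1 leaving out single libraries and 1 with a block within each genotype.

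Every sign change was of an uncalled log2 value. Leaving out single libraries, NF1KO against CTRL under DMSO ranged from -0.0537 to 0.0549 for ARAF and from -0.109 to 0.0389 for NRAS; ARAF was -0.0592 with the replicate block and -0.0541 without both CTRL libraries numbered 1. Under BYL719 that comparison ranged from -0.0284 to 0.0977 for NRAS, from -0.0129 to 0.153 for MAP2K2 and from -0.0655 to 0.149 for MAPK3, and without both CTRL libraries numbered 1 these were -0.022, -0.0066 and -0.0593. For BYL719 in CTRL, ARAF ranged from -0.0185 to 0.162. For BYL719 in NF1KO, NRAS ranged from -0.113 to 0.0347 and MAP2K1 from -0.0329 to 0.0132; MAP2K1 was 0.0082 with upper-quartile scaling, 0.0035 with the 1 CPM filter and 0.0143 with the replicate block. The cause was not tested.

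Over all genes, calls for NF1KO against CTRL under DMSO numbered 3269, and 1561 and 1523 without NF1KO DMSO replicate 2 and 3. For BYL719 in NF1KO, 3014 became 1048 and 788 without those libraries, 1794 without NF1KO BYL719 replicate 2, 4664 with the replicate block, 5312 without both CTRL libraries numbered 1 and 6744 with a block within each genotype. For the difference of effects, 1510 became 766 and 740 without NF1KO DMSO replicate 2 and 3, 2411 without both CTRL libraries numbered 1 and 4345 with a block within each genotype. Of 1020 list counts under alternatives, 168 moved by over 1.5 times. HRAS and BRAF, with at most 978 counts per library, have the least precise counts; leaving out an NF1KO DMSO library leaves 1, which is assumed to vary like the other groups.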

Other observations

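Other kinases around the cascade were called as well. For NF1KO against CTRL, 39.8% of all genes tested were called under BYL719 and 20.3% under DMSO. Among 24 tested kinases of other MAPK modules, 6 were higher and 2 lower in NF1KO than in CTRL under BYL719, and likewise 6 and 2 under DMSO, where 1 and 2 in all were called without NF1KO DMSO replicate 2 and 3, and 4 or 5 without any 1 CTRL DMSO library. MAP2K6, which activates p38, was at 10.5 ± 0.283 CPM in NF1KO and 21.2 ± 1.40 CPM in CTRL under BYL719 (-1.01 ± 0.08, adjusted p = 1.61e-06). MAP3K1 was at 309 ± 23.7 CPM in NF1KO and 179 ± 9.95 CPM in CTRL under BYL719 (0.78 ± 0.07, adjusted p = 3.38e-06). With BYL719, MAPK6, an atypical MAPK, fell by 0.56 in NF1KO (adjusted p = 0.000593) and by 0.48 in CTRL (adjusted p = 0.000153). MAPK15 rose by 1.28 ± 0.20 in NF1KO (adjusted p = 0.00121) and by 1.19 ± 0.17 in CTRL (adjusted p = 0.000114).

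Of 10 tested RAS GTPase-activating proteins, NF1 included, 1 was higher and 4 were lower in NF1KO than in CTRL both under BYL719 and under DMSO. NF1, the targeted gene, is among the 4 lower ones under BYL719 (-8.11) and under DMSO (-9.03), so the design fixed that call. Fewer were called under DMSO without NF1KO DMSO replicate 2 or 3. The shares of all genes called in that comparison were 39.8% under BYL719 and 20.3% under DMSO. DAB2IP, one of the GTPase-activating proteins, was at 31.3 ± 2.32 CPM in NF1KO and 39.9 ± 0.666 CPM in CTRL under BYL719 (-0.35 ± 0.07, adjusted p = 0.00203). Of 11 tested adaptors upstream of RAS, 3 rose and 1 fell with BYL719 in NF1KO, and 3 rose and 3 fell in CTRL. Over all genes tested, BYL719 gave calls for 18.7% in NF1KO and 44.4% in CTRL. SHC2 was at 3.42 ± 0.259 CPM with BYL719 and 0.813 ± 0.131 CPM with DMSO in NF1KO (2.07 ± 0.22, adjusted p = 0.000134), and at 6.71 ± 0.482 CPM with BYL719 and 1.39 ± 0.392 CPM with DMSO in CTRL (2.27 ± 0.17, adjusted p = 9.76e-07). CBLB, a ubiquitin ligase, rose by 0.60 ± 0.10 in NF1KO (adjusted p = 0.00219) and by 0.52 ± 0.09 in CTRL (adjusted p = 0.00055). FRS2, a docking protein for FGF receptors, rose by 0.43 ± 0.08 in NF1KO (adjusted p = 0.0025) and by 0.37 ± 0.07 in CTRL (adjusted p = 0.000836).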
